A study of Verbena bonariensis with 6 samples.

Results

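The stress NAC genes described here are the root transcripts of Verbena bonariensis whose best Swiss-Prot match is ATAF2, NAC domain-containing protein 2, 19 or 55, or NAC transcription factor 29. They were chosen by a rule on family and name, set with earlier results of these data known. The family had to be NAC. The Swiss-Prot description had to be ATAF2 or one of a fixed set of NAC numbers (2, 19, 29, 55, 72 and 81 among them). This gave 34 of the 8147 gene clusters in the deposited table of regulators, and 34 of its 271 NAC clusters. A cluster is a group of assembled transcripts counted as 1 gene. No cluster (0 of 8147) bore the number 72, that of RD26.

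NAC proteins are plant transcription factors that bind DNA through a conserved amino-terminal NAC (or NAM) domain, and their variable carboxy-terminal part regulates transcription. The ATAF branch is known from Arabidopsis thaliana. ATAF1, the product of NAC002, and ATAF2, the product of NAC081, respond to drought, abscisic acid, wounding and pathogens. NAC019 and NAC055 are close relatives of RD26 (NAC072) that act in drought, abscisic acid and jasmonate responses, and NAC029, also called NAP, promotes senescence. Roles below are those of the Arabidopsis proteins unless another species is named.

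Plants of the ornamental cultivar Finesse were 2 months old. In the cadmium group, cadmium, a toxic metal, was given to the soil at 100 mg/kg for 20 days, and in the control group no cadmium solution was added. Each group held 3 root libraries, labelled as biological replicates. How many plants went into a library is not stated in the labels. The regulator counts per library came to 1092183 to 1228042 in the cadmium group and 1207479 to 1340255 in the control group, within whole libraries of 20390656 to 23343050 and 18619728 to 20558908 fragments recovered from counts and FPKM. Summed over 55 clusters named after root regulators such as SCARECROW, SHORT-ROOT and SOMBRERO, FPKM was 134 to 174 in the cadmium libraries and 168 to 179 in the control libraries. The 3 clusters of shoot and leaf regulators (YABBY and MUTE) summed to 0.84 to 1.02 FPKM in cadmium and 0 to 0.5 FPKM in control, and the single AGAMOUS cluster, a flower regulator, reached 0 to 1.96 FPKM in cadmium and was listed at 0 in every control library. In whole roots, a change in the number of cells of a type and a change in RNA per cell cannot be told apart.

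The names carried unequal weight. ATAF2 was the name of 14 clusters, with 8 under NAC002, 5 under NAC029, 4 under NAC019 and 3 under NAC055. The deposited Swiss-Prot alignment scores ran from 558 to 969 under NAC002, but only from 170 to 231 under NAC019 and from 262 to 298 under NAC055. For none of these 7 NAC019 and NAC055 clusters did the best match in the larger NR protein database bear the same number: 3 were matched to NAC transcription factor 25, 2 to NAC domain-containing protein 94, and 1 each to NAC transcription factor 29 and ONAC010. Of the 14 ATAF2 clusters, 8 had an NR match named NAC domain-containing protein 2 and 2 had one named ATAF2. A single sesame protein, NAC domain-containing protein 2-like, was the NR match of 8 clusters from both ATAF names. NAC002 and ATAF2 are used below as the deposited names, not as a separation into orthologs. The NAM domain was annotated in 32 of the 34 clusters. The counting may have split reads among near-identical clusters, which makes the value of any single one of them uncertain.

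The comparison asks which of these stress regulators differed in roots after 20 days of cadmium. The main NAC002 and ATAF2 clusters were higher in cadmium, 2.61-fold to 5.07-fold above control. Among 25 clusters with enough counts to test, 11 rose and 1 fell. Under the NAC002 name 3 of 5 tested clusters rose. Under the ATAF2 name 3 of 13 tested clusters rose (23.1%), 1 fell and 9 did not change. Of the NAC029 clusters 4 rose, and 1 that stood lower in every cadmium library did not pass the test. The NAC055 clusters were too sparse to test. Levels are given as CPM, regulator counts scaled to a common library total with TMM factors, and as FPKM where levels of different clusters are compared. Each log2 fold change sets cadmium over control, its standard error (SE) comes from edgeR's quasi-likelihood fit on all 4844 tested regulators, and adjusted p is Benjamini-Hochberg over all of them, called below 0.05. Of the 25 tested stress NAC clusters 48% changed, with 44% higher and 4% lower, beside 30.5% of all tested regulators, with 15.8% higher and 14.6% lower. DESeq2 called 12 of the 25 higher and 3 lower, beside 21.8% and 21.5% of the regulators it tested. The CPM ranges of the groups did not overlap for 15 of the 25 clusters (11 of them higher in cadmium), beside 53.5% of all tested regulators (25.6% higher in cadmium). The median log2 fold change was 0.78 over the 25 clusters, also with the cluster at 0 in cadmium set to its bound, and −0.08 over all tested regulators. These shares are descriptions: only 13 of the 25 reached the count minimum in all 6 libraries. The others may have passed the filter through the group in which they were high, as the cluster that fell did. Among them are NAC002 Cluster-9033.88600 and NAC029 Cluster-9033.68093, both called higher. Scaling to whole-library totals instead shifted all log2 fold changes down by 0.35 (median), so changes are relative to the typical regulator. On that scale 8 of the 25 clusters were higher and 2 lower, beside 10.9% and 22.9% of all tested regulators.

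**Figure D1:**
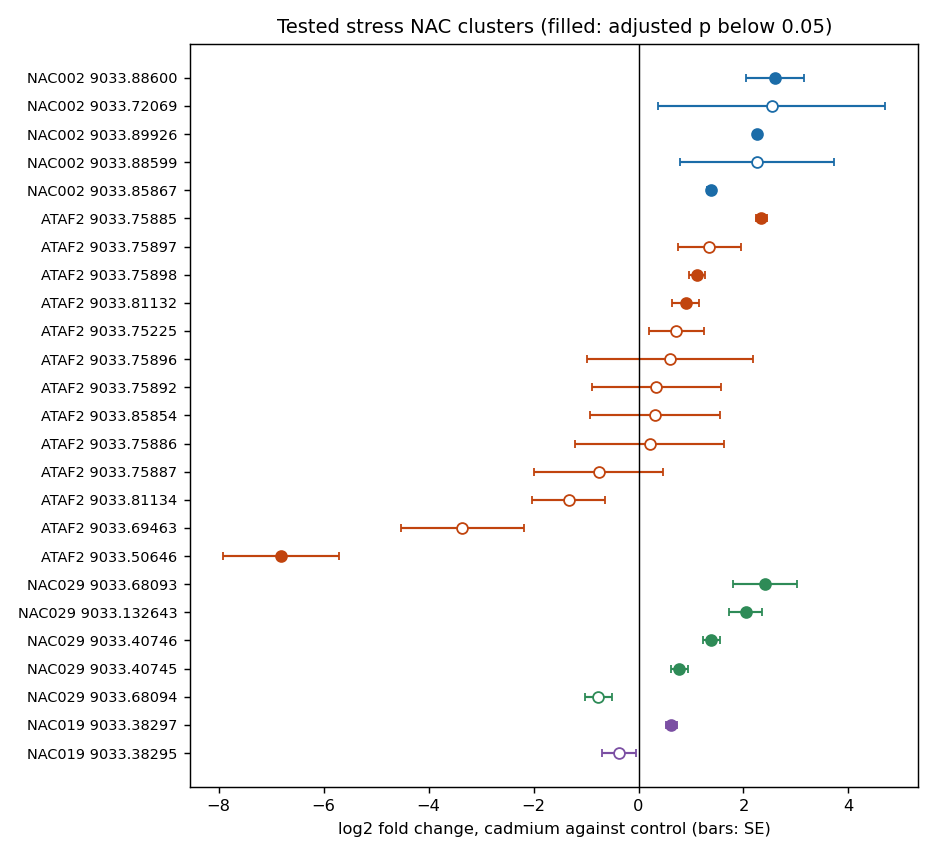
Log2 fold changes (cadmium against control, x axis) with standard errors for the 25 tested stress NAC clusters, coloured by Swiss-Prot name; filled points passed at an adjusted p below 0.05. The 11 filled points to the right of 0 span 0.63 to 2.61, and the only filled point to the left is ATAF2 Cluster-9033.50646, at 0 in cadmium, whose fitted value depends on the prior count.

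NAC002 encodes ATAF1, a regulator induced by drought and abscisic acid. Its most abundant cluster, Cluster-9033.85867, had 4774, 4970 and 5520 CPM in the cadmium libraries, against 2046, 1972 and 1821 CPM in the control libraries. Every cadmium library lay above every control library, and the cluster rose by 1.39 ± 0.08 on the log2 scale (SE, edgeR, adjusted p = 0.00014). The second NAC002 cluster, Cluster-9033.89926, had 3673, 3723 and 3818 CPM in cadmium and 762, 814 and 754 CPM in control. It too showed no overlap and rose by 2.27 ± 0.06 (SE, edgeR, adjusted p = 1.54e-05). Both changes kept their call without any single library and under every other setting tried.

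Within the NAC002 name the balance moved towards the second cluster. Cluster-9033.89926 held 42.5%, 41.7% and 39.5% of all NAC002 counts in the cadmium libraries and 26.9%, 28.5% and 28.7% in the control libraries. Cluster-9033.85867 held 55.2% to 57.1% in cadmium and 69% to 72.3% in control. These shares are taken within a library and do not depend on the scaling. The clusters match different NR proteins, one of sesame and one of Erythranthe, a monkeyflower. The log2 fold changes of these 2 clusters are 2.27 and 1.39; the difference between them was not tested.

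Another NAC002 cluster, Cluster-9033.88600, was far less abundant, with 47.5, 87.1 and 38.1 CPM in cadmium and 10.2, 4.86 and 12.9 CPM in control. It reached the count minimum in 3 cadmium and only 2 control libraries. It rose by 2.61 ± 0.55 on the log2 scale (SE, edgeR, adjusted p = 0.0153). That call ended without cadmium replicate 2 and without control replicate 1 (adjusted p of 0.0256 to 0.0541 over the 6 single-library omissions). It also ended with replicate number as a block (edgeR, adjusted p = 0.0867). The other 5 NAC002 clusters swung between libraries of the same group. Cluster-9033.119165, for example, held 0, 0 and 169 counts in cadmium and 1.25, 54.2 and 0 counts in control. None of these 5 passed edgeR's test, and 3 of them were too sparse to test. Cluster-9033.88599, with 107, 152 and 0 CPM in cadmium and 11.7, 25.1 and 17 CPM in control (adjusted p = 0.299), passed without cadmium replicate 3, the library at 0 (adjusted p = 0.0107). Cluster-9033.85853 and Cluster-9033.85855 had no count in any control library and were at 0 in 1 cadmium library as well. Against 3 counts over the control group, their summed cadmium counts were 12-fold and 15-fold higher. These bounds allow for counting error in the control group only, and leave out counting error in cadmium and the spread between libraries. Neither cluster was tested, and the authors' q-values were 0.267 and 0.297.

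ATAF2 is known as a wound- and pathogen-responsive NAC factor that also takes part in hormone metabolism. Its main cluster, Cluster-9033.75885, had 4814, 4405 and 4970 CPM in the cadmium libraries, against 866, 1056 and 878 CPM in the control libraries. The groups did not overlap, and the cluster rose by 2.34 ± 0.1 (SE, edgeR, adjusted p = 6.37e-05), a 5.07-fold difference. It made up 84.7% to 89.8% of all ATAF2-named counts in cadmium and 62.3% to 70.5% in control. A sum over the name is mostly the sum of this cluster.

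**Figure D2:**
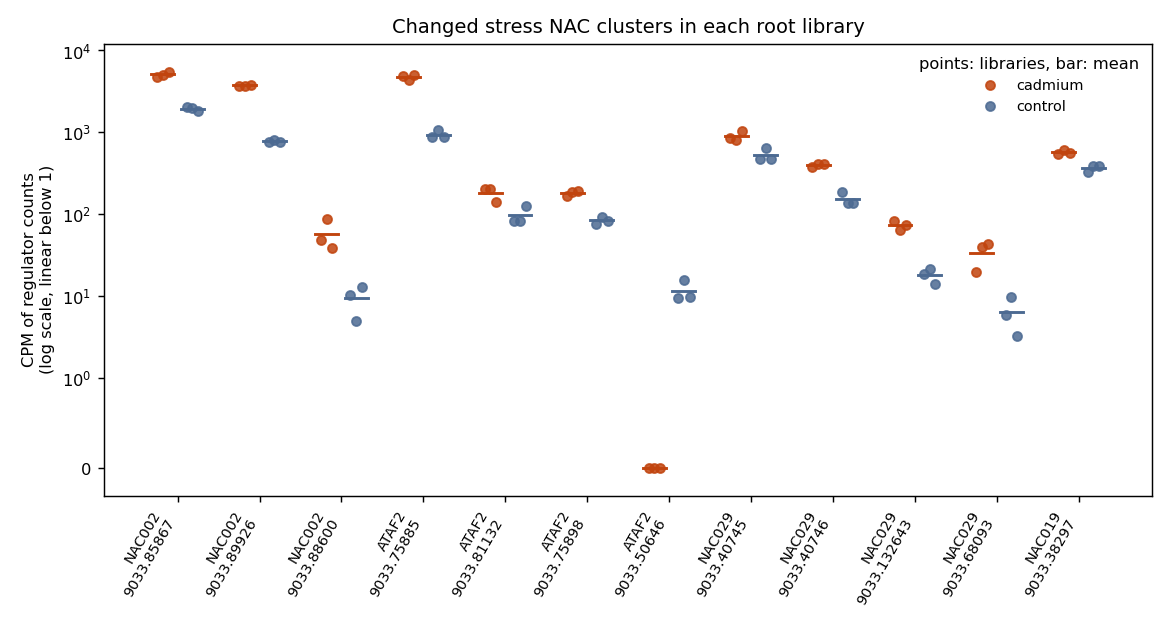
CPM of regulator counts (y axis, logarithmic above 1 and linear below) for the 12 stress NAC clusters that passed the test, with each library as a point and the group mean as a bar, cadmium left of control. The groups do not overlap in any of the 12, which were picked by the test on these same libraries. Over all tested regulators, 53.5% do not overlap. Only ATAF2 Cluster-9033.50646 is lower in cadmium, at 0 in all 3 libraries.

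Smaller ATAF2 clusters moved less or in both directions. Cluster-9033.75898 had 164, 188 and 190 CPM in cadmium and 76.1, 93.1 and 81.6 CPM in control, and rose by 1.11 ± 0.16 (SE, edgeR, adjusted p = 0.00357). Its call held without any single library. Cluster-9033.81132 had 202, 200 and 138 CPM in cadmium and 81.2, 82.6 and 126 CPM in control. The lowest cadmium library lay just above the highest control library, and the cluster rose by 0.9 ± 0.26 (SE, edgeR, adjusted p = 0.0428). This rise did not pass without any 1 of 4 libraries (cadmium 1, cadmium 2, control 1 or control 2, adjusted p up to 0.128). Nor did it pass with whole-library totals (adjusted p = 0.16), without the count filter (adjusted p = 0.0587) or with replicate number as a block (adjusted p = 0.135). It also missed the threshold with limma-trend on FPKM (adjusted p = 0.0996 and 0.108 with 1 and 0.1 added).

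The cluster that fell, Cluster-9033.50646, had no count in any cadmium library and 9.51, 15.4 and 9.69 CPM in control, from 44 counts in all. It was lower in cadmium (edgeR, adjusted p = 0.0154). Against 3 counts over that group the difference was 13-fold, a bound that allows for counting error in cadmium only. The cluster reached the count minimum in 0 cadmium and 3 control libraries, so it entered the test only through the control group. The call ended without any 1 of the 3 control libraries (adjusted p up to 0.0751) and with replicate number as a block (edgeR, adjusted p = 0.175). Its ATAF2 name is weak: the Swiss-Prot score was 198, the lowest under that name, and the NR match was NAC transcription factor 25 of sweet orange.

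Another ATAF2 cluster that stood lower was Cluster-9033.69463, which shares its NR match with the main cluster. It had 10.2, 1.87 and 0 CPM in cadmium and 34.4, 35.6 and 57.3 CPM in control. The groups did not overlap, but the log2 fold change of −3.36 ± 1.17 did not pass (SE, edgeR, adjusted p = 0.0785). It passed with DESeq2 (adjusted p = 0.00308), and the authors' deposited table lists it with a q-value of 0.00052693. Counts summed over both clusters of that protein, 4783, 4351 and 4931 CPM in cadmium and 897, 1075 and 921 CPM in control, were higher in cadmium by 2.28 ± 0.09 (SE, edgeR on summed counts, adjusted p = 8.84e-08). Cluster-9033.69463 made up a small part of that sum.

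The other 9 ATAF2 clusters did not pass edgeR's test, 1 of them untested. Of these, DESeq2 called Cluster-9033.75897 higher (adjusted p = 0.0425), and limma-trend on log2(FPKM + 1) called Cluster-9033.81134 lower (adjusted p = 0.0233). Several varied widely between replicates. Cluster-9033.75886, Cluster-9033.75896 and Cluster-9033.75897 share a Eucalyptus protein named NAC domain-containing protein 2-like as their NR match, and have the same predicted coding positions. Cluster-9033.75897 had 198, 166 and 75.3 CPM in cadmium and 23.4, 51 and 97.7 CPM in control, with overlap between the groups. Cluster-9033.75896 had 2.54, 33.7 and 85.6 CPM in cadmium and 50.5, 30 and 0 CPM in control. In the cadmium libraries the order of the values was opposite in these 2 clusters. Summed over the 3 clusters, the protein had 202, 226 and 179 CPM in the cadmium libraries, against 90.4, 107 and 96.2 CPM in the control libraries, with no overlap. The sum rose by 1.05 ± 0.14 on the log2 scale (SE, edgeR on summed counts, adjusted p = 0.000208), whereas none of the 3 passed alone in edgeR (adjusted p of 0.141 for Cluster-9033.75897, which passed with DESeq2, 0.818 for Cluster-9033.75896 and 0.934 for Cluster-9033.75886). Another shared protein, ATAF2-like of Erythranthe, varied in its sum as well: Cluster-9033.75892 and Cluster-9033.75887 together had 103, 66.5 and 1.72 CPM in cadmium and 53.9, 40.7 and 85.1 CPM in control, with overlap between the groups (edgeR on summed counts, adjusted p = 0.944).

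**Figure D3:**
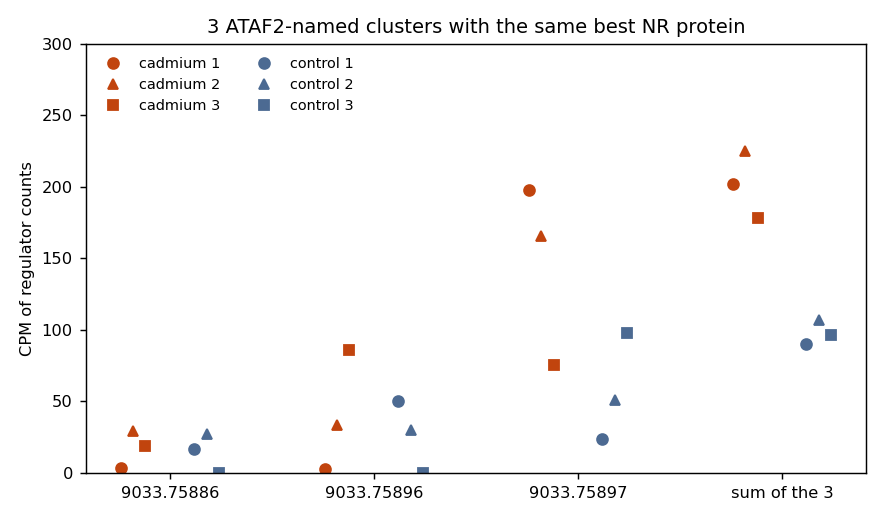
CPM of regulator counts (y axis) for 3 ATAF2-named clusters that share their best NR protein, and for their sum, with cadmium libraries left of control libraries and a marker for each replicate number. Single clusters overlap between groups, while the sums lie at 179 to 226 CPM in cadmium and 90.4 to 107 CPM in control.

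Such swings were counted over all members. A cluster was taken to swing where, within 1 group, a library had under 1 count and another had at least 20. This held for 10 of the 29 stress NAC clusters that reached 20 counts in any library (34.5%), and for 1141 of 5252 regulators (21.7%). It held for 5 of 8 NAC002 clusters, 4 of 13 ATAF2 clusters and 1 NAC055 cluster, but for 0 of the 5 NAC029 and 0 of the 2 NAC019 clusters. The threshold was chosen after the counts were seen, and the difference between these shares was not tested. Summed over best NR proteins, the 34 clusters fell into 16 proteins, of which 15 could be tested: 9 were higher, 1 was lower and 5 did not pass (edgeR on summed counts). In 3 of these proteins the sum also holds clusters outside the stress NAC genes, 8 in all, named FEZ or NAC056 or without a Swiss-Prot name. For the protein shared by a pair of NAC055 clusters, NAC domain-containing protein 94, those other clusters make up nearly all of the sum, so it says nothing of NAC055. Of all 2072 proteins tested in this way, 30.4% were higher and 29.9% lower.

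NAC029, or NAP, activates abscisic acid synthesis and chlorophyll breakdown in ageing leaves. Its most abundant cluster, Cluster-9033.40745, had 853, 807 and 1046 CPM in cadmium and 468, 639 and 469 CPM in control. It rose by 0.78 ± 0.17 (SE, edgeR, adjusted p = 0.0156), but not without control replicate 1 or control replicate 3 (adjusted p up to 0.0611). Nor did it pass with whole-library totals (adjusted p = 0.0817), with limma-trend on log2(FPKM + 0.1) (adjusted p = 0.054) or with replicate number as a block (edgeR, adjusted p = 0.0659). Its neighbour Cluster-9033.40746 had 373, 413 and 409 CPM in cadmium and 184, 138 and 135 CPM in control, and rose by 1.39 ± 0.16 (SE, edgeR, adjusted p = 0.00145). Both match the same sage protein (Salvia miltiorrhiza NAC2) with the same annotated reading frame. Their sum was 1216, 1204 and 1443 CPM in cadmium and 649, 765 and 595 CPM in control, a rise of 0.94 ± 0.11 (SE, edgeR on summed counts, adjusted p = 7.89e-05).

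The third abundant NAC029 cluster stood lower in cadmium. Cluster-9033.68094 had 257, 232 and 352 CPM in the cadmium libraries, against 424, 635 and 372 CPM in the control libraries. The groups did not overlap, yet the log2 fold change of −0.77 ± 0.26 did not pass (SE, edgeR, adjusted p = 0.0695). It was lower with whole-library totals (adjusted p = 0.0176), with DESeq2 (adjusted p = 0.0119) and in the fit on NR sums, where it is alone under its protein (adjusted p = 0.0137). This cluster held 16.2%, 14.9% and 18.3% of NAC029 counts in cadmium and 38.6%, 44.1% and 37.4% in control. It is also the only NAC029 cluster whose NR match, a sesame protein, bears the name NAC transcription factor 29.

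A pair of minor NAC029 clusters rose. Cluster-9033.132643, only 506 bases long, had 82.3, 63.7 and 73.5 CPM in cadmium and 18.3, 21.1 and 13.7 CPM in control, a rise of 2.04 ± 0.31 (SE, edgeR, adjusted p = 0.00469). Cluster-9033.68093 had 19.5, 39.3 and 42.4 CPM in cadmium and 5.85, 9.72 and 3.23 CPM in control. It reached the count minimum in 3 cadmium libraries but only 1 control library. It rose by 2.41 ± 0.61 (SE, edgeR, adjusted p = 0.0293). This call ended without any 1 of 4 libraries (cadmium 2, cadmium 3, control 1 or control 3, adjusted p up to 0.0958). It also ended without the count filter (adjusted p = 0.0555) and with replicate number as a block (adjusted p = 0.096). FPKM summed over the NAC029 name was 96.7, 96.8 and 118 in cadmium and 76.9, 94.6 and 68.7 in control, a ratio of the means of 1.3.

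NAC019 and NAC055 act with RD26 in abscisic acid and jasmonate responses, and here both names rest on low alignment scores. The main NAC019 cluster, Cluster-9033.38297, had 543, 598 and 557 CPM in cadmium and 323, 386 and 392 CPM in control. It rose by 0.63 ± 0.11 (SE, edgeR, adjusted p = 0.0071), without overlap, but on whole-library totals it missed the threshold (log2 fold change 0.28, adjusted p = 0.0989), as it did with limma-trend on FPKM (adjusted p = 0.0653 and 0.068 with 1 and 0.1 added). Cluster-9033.38295 had 45.8, 31.8 and 33.7 CPM in cadmium and 53.4, 38.1 and 52.5 CPM in control, with overlapping groups (log2 fold change −0.37 ± 0.32, SE, edgeR, adjusted p = 0.439). The other pair of NAC019 clusters stayed under 16 counts in every library and were not tested.

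The 3 NAC055 clusters were not tested either. Cluster-9033.94143, the one with the highest mean FPKM, had its counts in a single library: 0 in all 3 cadmium libraries and 0, 48.8 and 0 counts in the control libraries. Cluster-9033.94142 was present only in that same control library, at 2.11 counts, and Cluster-13019.0 had 1 to 5.34 counts in each library. No difference in NAC055 was detectable at this depth.

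Per length, the 4 most abundant clusters had the same order in both groups. In the cadmium libraries NAC002 Cluster-9033.85867 stood first at 280 ± 26.3 FPKM, ahead of NAC002 Cluster-9033.89926 at 183 ± 7.23 and ATAF2 Cluster-9033.75885 at 177 ± 10.8, which did not differ beyond their spread (mean ± SD, n = 3). NAC029 Cluster-9033.40745 came next at 48.4 ± 7.36 FPKM and NAC019 Cluster-9033.38297 at 29 ± 1.96 FPKM. In the control libraries the same clusters led, at 136 ± 7.74, 48.1 ± 1.17 and 44.2 ± 4.22 FPKM, followed by NAC029 Cluster-9033.40745 at 35.5 ± 5.99 FPKM. From the second place down to the seventh, each control cluster overlapped its next neighbour. The first 3 ranked 18, 39 and 41 by mean FPKM among all 8147 regulators in cadmium and 72, 206 and 231 in control.

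**Figure D4:**
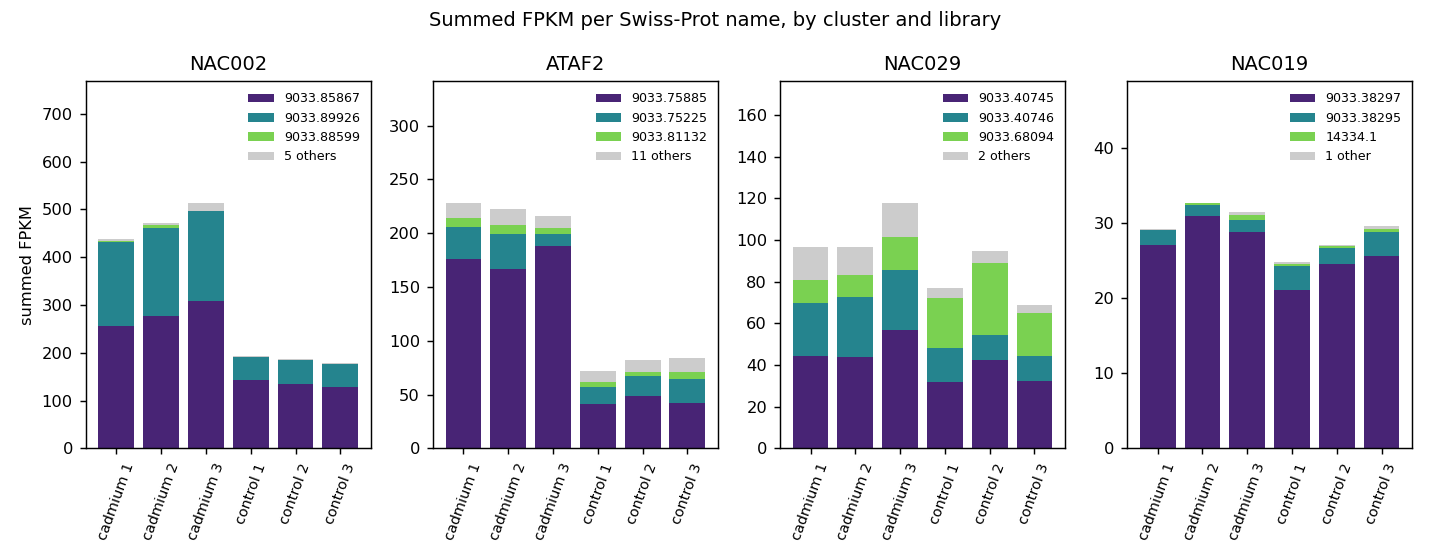
Summed FPKM (y axis) of the clusters under 4 Swiss-Prot names in each library (x axis, cadmium left of control), stacked by cluster with the 3 most abundant named. NAC002 sums are 439 to 513 FPKM in cadmium and 178 to 193 in control, and ATAF2 sums are 216 to 228 in cadmium and 71.9 to 84.4 in control; the panels have separate y axes.

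Summed FPKM of all 34 clusters was 793, 823 and 878 in the cadmium libraries and 367, 395 and 361 in the control libraries, a ratio of the means of 2.22. FPKM is relative to the whole library. Within the NAC family, the 34 clusters took 43.9% ± 0.59 of the counts in cadmium and 24.8% ± 0.92 in control (SD, n = 3). The 3 leading ATAF clusters alone took 35.4% ± 0.57 of the NAC counts in cadmium and 15.7% ± 0.41 in control. Neither pair of ranges overlapped, and no test was made because the members had been chosen as a group.

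Of the remaining 237 NAC clusters, 125 were tested; 32 rose and 15 fell, with a median log2 fold change of 0.26, or −0.09 with whole-library totals. Whether this differs from the stress NAC clusters was not tested. NAC factors of root and meristem development had 10 higher and 2 lower of 33 tested (14 and 5 with DESeq2, 7 and 4 with whole-library totals), beside 15.8% higher and 14.6% lower of all tested regulators. Their call with the smallest adjusted p was Cluster-9033.49588 of NAC100, a homolog of a miR164 target. It had 853, 796 and 1096 CPM in cadmium and 198, 246 and 229 CPM in control (log2 fold change 2.03, edgeR, adjusted p = 0.000414). Not every NAC100 cluster passed: edgeR gave an adjusted p of 0.104 for Cluster-11420.0, 0.496 for Cluster-11420.1 and 0.719 for Cluster-5518.1. NAC021, known for auxin-dependent lateral root formation, was listed at 0 in all 3 cadmium libraries in Cluster-9033.22914 and had 10.2 to 12.1 CPM in control. That sparse cluster entered the test only through the control group. Another tested NAC021 cluster, Cluster-4565.0, averaged 13.6 CPM in cadmium and 11.5 CPM in control (log2 fold change 0.24 ± 0.67, SE, edgeR, adjusted p = 0.831).

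Membrane-bound stress NAC factors, which are released from membranes on stress, had 5 higher and 5 lower of 23 tested (4 and 7 with whole-library totals). NAC053, linked to proteasome stress, averaged 790 ± 40.3 CPM in cadmium and 353 ± 15 CPM in control, and NAC017, a mediator of mitochondrial signals, averaged 85.8 ± 18.4 CPM in cadmium and 217 ± 28 CPM in control (SD, n = 3). Senescence NAC factors had 2 higher and 2 lower of 8 tested (2 and 3 with whole-library totals). NAC92, or ORE1, averaged 47.9 ± 4.38 CPM in cadmium and 8.29 ± 1.13 CPM in control, while NAC083, a repressor of vessel formation and leaf ageing, averaged 161 ± 14.7 CPM in cadmium and 370 ± 13.6 CPM in control. Cell-wall NAC factors had 3 higher and 2 lower of 15 tested (2 and 2 with whole-library totals). NAC100 Cluster-9033.49588, NAC021 Cluster-9033.22914 and the NAC053, NAC017, NAC92 and NAC083 clusters were picked for the smallest adjusted p in their list and direction. That they passed edgeR's test (adjusted p between 0.000267 for NAC053 and 0.014 for NAC021) follows from this choice.

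Regulators known to act upstream of or beside the stress NAC factors were counted in the same way, against the same shares of all tested regulators. MYC2, the jasmonate activator that induces NAC019, NAC055 and NAC072 in Arabidopsis, belongs to a list in which 0 of 3 tested clusters rose and 2 fell (edgeR; 0 higher and 3 lower at an unadjusted p below 0.05, with DESeq2 and with whole-library totals). The most clearly changed MYC2 cluster, Cluster-9033.82382, had a log2 fold change of −1.48 ± 0.1 (SE, edgeR, adjusted p = 0.00023). Among bZIP factors of the abscisic acid response, 0 of 14 tested rose and 3 fell (edgeR; 1 higher and 3 lower at an unadjusted p below 0.05 and with DESeq2, 0 and 4 with whole-library totals), beside 15.8% higher and 14.6% lower of all tested regulators. ABF2, an activator of abscisic acid-responsive genes, had 50.9, 57.1 and 55.4 CPM in cadmium and 121, 110 and 108 CPM in control (edgeR, adjusted p = 0.00766). EIN3 and its relatives, ethylene activators that induce NAC029 and ORE1, had 7 higher and 2 lower of 16 tested, 8 and 3 with DESeq2, but 4 and 4 with whole-library totals. Zinc-finger homeodomain proteins, of which one binds stress NAC factors in drought, had 2 higher and 1 lower of 10 tested (2 and 2 with whole-library totals). DREB2-type factors, activators of drought and heat genes, also had 2 higher and 1 lower, of 6 tested, the same counts as with whole-library totals.

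The regulators with profiles most like NAC002 Cluster-9033.85867 were sought by the root mean square difference of log2 CPM over the 6 libraries, each cluster centred on its own mean. Of 4819 clusters compared, the 5 nearest were WRKY11 (0.0717), the trihelix factor ASIL2 (0.0746), MYB44 (0.0805), SPL12 (0.082) and the Sin3-like protein SNL2 (0.0831). Their log2 fold changes ran from 1.31 to 1.41. With 2 groups of 3 libraries, this likeness mostly reflects a similar difference between the groups. The nearest stress NAC cluster was NAC029 Cluster-9033.40746, at 0.118.

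**Figure D5:**
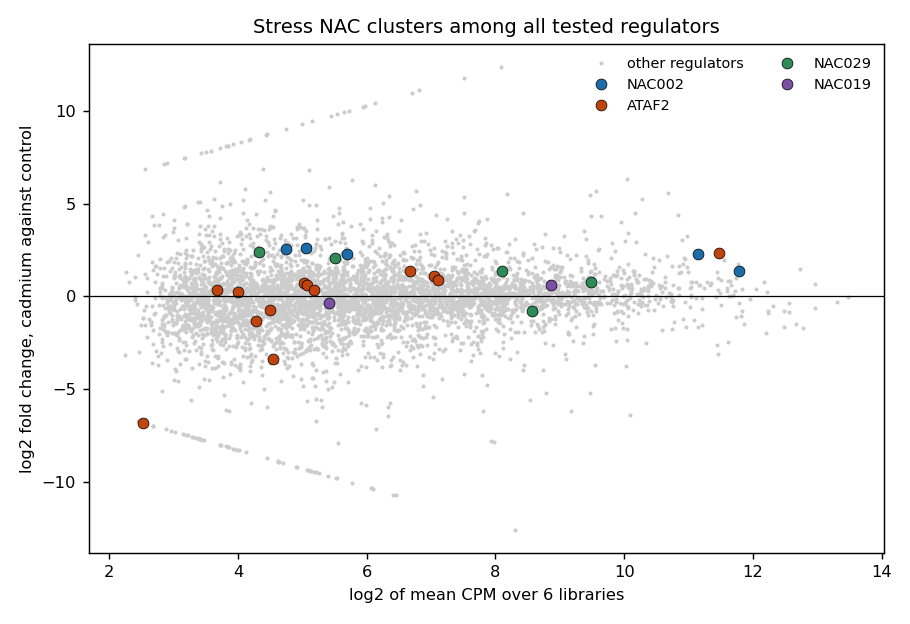
Log2 fold change (cadmium against control, y axis) by log2 mean CPM over 6 libraries (x axis) for all 4844 tested regulators in grey, with the 25 tested stress NAC clusters coloured by Swiss-Prot name. The 3 most abundant coloured points, a pair of NAC002 clusters and 1 ATAF2 cluster, lie between 1.39 and 2.34 on the y axis.

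The authors' deposited table gave a similar split of the 34 clusters at a q-value below 0.05, with 9 higher and 2 lower, beside 8.95% and 10.2% of all 7697 clusters with a q-value there. Its log2 ratios for the leading clusters were 1.3084 for NAC002 Cluster-9033.85867, 2.188 for NAC002 Cluster-9033.89926 and 2.2643 for ATAF2 Cluster-9033.75885.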

How the data were processed

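Root RNA of 3 cadmium and 3 control libraries was sequenced. Per the labels' protocols, Trizol was used for extraction and an Illumina TruSeq kit for library preparation. Bowtie2 2.0.6 and TopHat2 2.0.12 are named in the submitters' processing notes; their role, the assembler and the counter were not stated there. Expected counts (estimated counts with decimals) were deposited by the authors, unscaled, per the file headers. FPKM values, the log2 ratio and the q-value of cadmium over control, and the alignment score of each best database hit were also deposited by the authors, per the file headers.

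Repeated lines of a cluster were merged (8544 lines, 8147 clusters). Counts were rounded and tested with edgeR 4.0.16 in R 4.3.3: filterByExpr (minimum count 10, minimum total 15), TMM factors over the regulators, a quasi-likelihood test with no covariate besides group, and adjusted p (Benjamini-Hochberg) below 0.05. SE is the log2 fold change over the square root of F. Dispersion over all regulators corresponded to a coefficient of variation of 0.573, which limits the precision for sparse clusters. Whole-library totals came from fitting count over FPKM against length, over clusters above 300 counts and 10 FPKM. Alternatives were RLE factors, whole-library totals, other filters, DESeq2 1.42.0, limma-trend (limma 3.58.1) on log2(FPKM + 1) and log2(FPKM + 0.1), a replicate block, omission of each library and sums over shared NR or Swiss-Prot proteins. Tables and figures used Python 3.11.15 with pandas 2.3.3, numpy 2.4.6 and matplotlib 3.10.9. Clusters given in full are those that passed the test and the most abundant of each name; Cluster-9033.119165, Cluster-9033.88599, Cluster-9033.69463, Cluster-9033.81134, Cluster-9033.75892, Cluster-9033.75887, Cluster-9033.68094, Cluster-9033.38295 and the swinging clusters were chosen after their values were seen. From each of 9 pathway lists at most 1 cluster per direction, the one with the smallest adjusted p, could be named. Members and lists were chosen with earlier results of these data known.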

Additional observations from a re-analysis of the deposited data

How the results depend on the processing

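Across all settings that fit single clusters, the 12 called clusters kept their direction. The calls of 7 held without any single library, 9 held with whole-library totals, 12 with DESeq2 and 7 with the replicate block. The labels state no pairing by replicate number. Over all tested regulators, deviations of same-numbered libraries correlated at 0.005, 0.029 and −0.004, and those of differently numbered libraries at −0.031 to 0.025. These values show no shared deviation by number, but noise in sparse clusters could hide one, so they cannot settle whether libraries were paired. With the replicate block, 886 regulators changed in place of 1476, 30 other NAC clusters in place of 47, and 7 stress NAC clusters were higher and 0 lower (edgeR, also 0 at an unadjusted p below 0.05). Stress NAC clusters lower in cadmium numbered 2 with whole-library totals, 3 with DESeq2, 4 with limma-trend on log2(FPKM + 1) and 3 on log2(FPKM + 0.1), in place of 1. Without single libraries, 7 to 11 were higher and 0 to 2 lower, with 7 higher without control replicate 1. The same omissions gave 1136 to 1215 changed regulators and 34 to 39 other NAC clusters. Sums over Swiss-Prot names changed 829 of 1449 names and 26 of 38 other NAC names. They changed 4 of 4 tested stress NAC names, all higher and 0 lower. ATAF2 Cluster-9033.50646 turned to 0.47 with its NR sum and 1.97 with its Swiss-Prot sum, because more abundant clusters enter those sums. The counts of sparse clusters limit what can be called.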
